A study of Mus musculus with 7 samples.

Results

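The miR-181 family was followed in CD8+ T cells sorted from the spleens of neonatal and adult mice. Its 6 members here are 4 guide arms (miR-181a-5p, and the b, c and d forms) and the opposite arms miR-181a-1-3p and miR-181a-2-3p. They were chosen by name from the 1978 mature miRNAs of a deposited count table, where they fill 8 of 2128 lines.

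All mice were gBT-I, a line whose T cells carry 1 transgenic T cell receptor, so every group shares that transgene. Cells enriched with beads against CD8α were sorted at over 95% purity into CD44hi CD122hi cells, known as virtual memory (VM), and CD44lo CD122lo cells, the true naive (TN) cells. The groups were neonatal VM (2 libraries), neonatal TN (1), adult VM (2) and adult TN (2). The labels do not state ages in days, animal numbers or pooling, so the spread behind each p-value is that of libraries and could be technical. The neonatal TN library has no replicate, and its values carry no SD.

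MicroRNAs are short RNAs that pair with messenger RNAs through their seed, bases 2 to 8, and lower the output of the target. In mouse thymocytes miR-181a raises T cell receptor sensitivity by repressing several phosphatases that dampen receptor signals, and it is known for high levels in immature thymocytes. Each hairpin precursor yields a 5p and a 3p arm. In this family the 5p arm is the usual guide, and the 3p arm is the passenger strand, which is mostly degraded.

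The 4 guide arms are shown first because they share 1 seed, set in capitals, and differ only beyond it (RefSeq mature sequences, 5′ to 3′).
mmu-miR-181a-5p: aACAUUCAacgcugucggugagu
mmu-miR-181b-5p: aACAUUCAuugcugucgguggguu
mmu-miR-181c-5p: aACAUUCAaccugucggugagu
mmu-miR-181d-5p: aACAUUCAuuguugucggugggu
No other mature miRNA of the RefSeq table had the seed ACAUUCA. With positions counted from 1 at the 5′ end, miR-181b-5p differs from miR-181a-5p by A9U, C10U and A21G and is 1 base longer. MiR-181d-5p differs from miR-181b-5p by C12U and is 1 base shorter. MiR-181c-5p is 1 edit from miR-181a-5p, the loss of 1 base. Arms this alike can exchange reads, so the split between miR-181a-5p and miR-181c-5p, and between miR-181b-5p and miR-181d-5p, is uncertain to that degree.

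The 3p arms of the 2 miR-181a hairpins are shown because they differ between the hairpins, as the shared 5p arm does not. Capitals mark the bases at which they differ, U5C and U16C from miR-181a-1-3p to miR-181a-2-3p.
mmu-miR-181a-1-3p: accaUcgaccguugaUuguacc
mmu-miR-181a-2-3p: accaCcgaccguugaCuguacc
The first difference lies in the seed, so these 2 arms have different seeds, CCAUCGA and CCACCGA. Of the other arms, miR-181c-3p has the seed of miR-181a-1-3p. The 2 miR-181a 3p arms are 2 edits apart, as miR-181b-5p and miR-181d-5p are. They can exchange reads too, so their split is uncertain to that degree.

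The family comes from 6 hairpins in 3 pairs (GRCm38.p6). Mir181a-1 (chromosome 1, 137966455 to 137966541, plus strand) and Mir181b-1 (137966639 to 137966718) are 97 bases apart, in an exon of the long noncoding RNA A430106G13Rik and in an intron of Gm4258. Mir181a-2 (chromosome 2, 38852735 to 38852810, plus strand) and Mir181b-2 (38853830 to 38853918) are 1019 bases apart, have no host on their strand and lie opposite to Nr6a1. Mir181d (chromosome 8, 84178716 to 84178787, minus strand) and Mir181c (84178873 to 84178961) are 85 bases apart and lie in an intron of Nanos3. In the deposited table the 2 lines of miR-181a-5p, 1 per hairpin, differed by at most 5.43e-04% of their sum, so its counts cannot be assigned to chromosome 1 or 2. The lines of miR-181b-5p differed by 1.18 to 2.61% of their sum.

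Library totals ran from 1577031 to 3278449 counts. All 5 lymphocyte miRNAs were present. In CPM (a level relative to the library total, scaled by TMM factors) they summed to 140487 to 153975 in neonatal VM and 115173 in neonatal TN, against 326697 to 363870 in adult VM and 426064 to 488561 in adult TN. Markers of other cells were low. The 3 erythroid markers summed to 80.0 to 92.0 CPM in neonatal VM, 230.3 in neonatal TN, 249.6 to 297.0 in adult VM and 123.0 to 163.9 in adult TN, nearly all of it miR-486a-5p. The 2 myeloid markers summed to 0.989 to 15.9 CPM over all libraries. The replicates of adult VM lay furthest apart, with 35 of 288 tested miRNAs over 2-fold apart, against 11 in neonatal VM and 11 in adult TN.

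MiR-181a-5p, the most abundant member, was lower in VM than in TN cells at both ages. In bulk samples, fewer cells with an RNA and less of it per cell cannot be told apart. It stood at 25886 and 20771 CPM in the neonatal VM libraries and at 171813 CPM in the neonatal TN library. In adult cells it stood at 16417 and 16420 CPM in VM and at 73769 and 104380 CPM in TN. Every VM library lay below every TN library, and the order of groups was neonatal TN, adult TN, neonatal VM, adult VM, with no overlap between neighbours. By level it was the 10th and 11th miRNA in neonatal VM, the 1st in neonatal TN, the 13th and 16th in adult VM and the 3rd in both adult TN libraries.

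MiR-181b-5p, made from the neighbouring hairpins of both miR-181a loci, showed the same order of groups. It stood at 1703 and 1349 CPM in neonatal VM and 11117 CPM in neonatal TN, and at 675 and 633 CPM in adult VM and 2704 and 3682 CPM in adult TN. MiR-181a-1-3p, the passenger arm of chromosome 1, had 138 and 120 CPM in neonatal VM and 744 CPM in neonatal TN. In adult cells it had 91.4 and 98.9 CPM in VM and 469 and 584 CPM in TN. No neighbouring groups overlapped for either arm.

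MiR-181a-2-3p, the passenger arm of chromosome 2, spanned the widest range of the 6 as a fold between its lowest and highest library. It had 132 and 113 CPM in neonatal VM and 1813 CPM in neonatal TN. In adult cells it had 30.6 and 29.7 CPM in VM and 292 and 410.0 CPM in TN. The adult VM values rest on 76 counts in replicate 1 and 86 in replicate 2, and the neonatal TN value on 5825.

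The guide arms of chromosome 8 were ordered by age instead. MiR-181c-5p had 17569 and 19443 CPM in neonatal VM and 18662 CPM in neonatal TN, and these groups overlapped. It had 10256 and 12649 CPM in adult VM and 7428 and 8874 CPM in adult TN. MiR-181d-5p had 3598 and 3564 CPM in neonatal VM and 4289 CPM in neonatal TN, against 857 and 1128 CPM in adult VM and 765 and 831 CPM in adult TN. All 3 neonatal libraries exceeded all 4 adult ones for both arms.

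**Figure D1:**
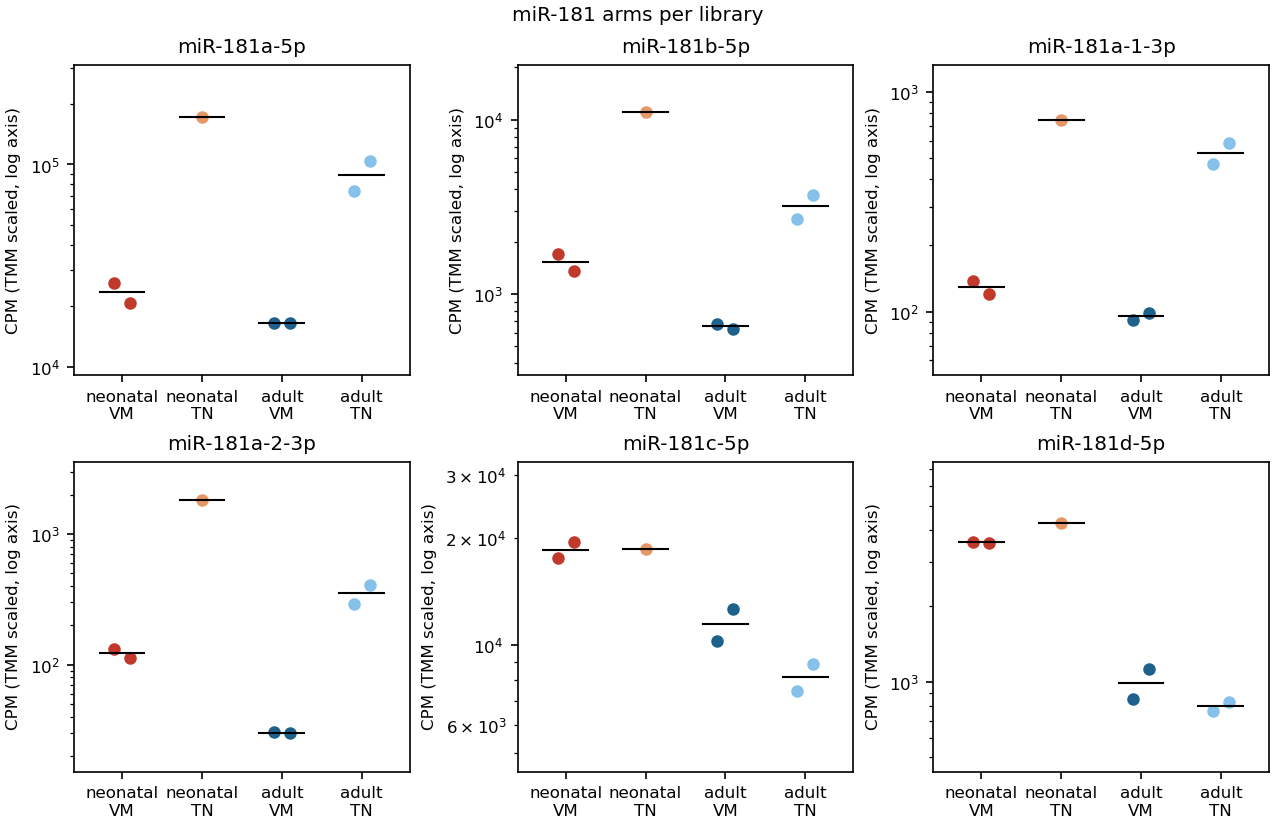
Level of each arm in every library, in CPM scaled by TMM factors on a log axis. Points are libraries and lines are group means. MiR-181a-5p, miR-181b-5p and both miR-181a 3p arms are lower in VM than in TN at each age, while miR-181c-5p and miR-181d-5p follow age (3598 and 3564 CPM of miR-181d-5p in neonatal VM, 857 and 1128 in adult VM).

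The comparison of VM with TN cells asked how the family differs between the 2 naive subsets. In neonatal cells 4 of the 6 members fell in VM, where 6.60% of all 288 tested miRNAs were called lower, 3.12% higher and 9.72% in either direction. MiR-181a-5p was 7.36-fold lower in neonatal VM (log2 value -2.88, SE 0.23, edgeR adjusted p = 4.20e-06) and miR-181b-5p 7.28-fold lower (-2.86, SE 0.25, edgeR adjusted p = 7.30e-06). MiR-181a-1-3p was 5.77-fold lower (-2.53, SE 0.24, edgeR adjusted p = 1.06e-05) and miR-181a-2-3p 14.9-fold lower (-3.89, SE 0.26, edgeR adjusted p = 1.11e-06). In order of log2 fold change these 4 held places 2 to 5 from the lowest of the 288. MiR-181c-5p and miR-181d-5p did not pass, at log2 fold changes of -0.012 (SE 0.23, edgeR adjusted p = 0.965) and -0.26 (SE 0.24, edgeR adjusted p = 0.587). These are fits against 1 neonatal TN library.

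In adult cells the same 4 members fell in VM, where 15.6% of all tested miRNAs were called lower, 23.3% higher and 38.9% in either direction. MiR-181a-5p was 5.43-fold lower in adult VM (log2 value -2.44, SE 0.20, edgeR adjusted p = 4.29e-06), miR-181b-5p 4.88-fold (-2.29, SE 0.22, edgeR adjusted p = 8.58e-06) and miR-181a-1-3p 5.53-fold (-2.47, SE 0.21, edgeR adjusted p = 4.29e-06). MiR-181a-2-3p was 11.6-fold lower (-3.54, SE 0.25, edgeR adjusted p = 1.38e-06), the lowest log2 fold change of the 288. MiR-181c-5p, at 0.49 (SE 0.19, edgeR adjusted p = 0.0523), missed the threshold. It passed when scaled by library totals (0.0151) or without the members (0.0424), with no filter (0.0263) and without adult VM replicate 1 (0.00865). MiR-181d-5p was at 0.31 (SE 0.20, edgeR adjusted p = 0.225), and at -0.015 without adult VM replicate 2.

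No member was called higher in VM at either age by edgeR or by DESeq2. At an unadjusted p under 0.05 the count was 0 in neonatal and 1 in adult cells, miR-181c-5p. The median log2 fold change of the 6 was -2.70 in neonatal cells, against -0.11 over all tested miRNAs, and -2.36 in adult cells, against 0.09. Scaled by library totals, the calls over all miRNAs were 21 higher and 14 lower in neonatal cells, against 9 and 19 with TMM factors.

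**Figure D2:**
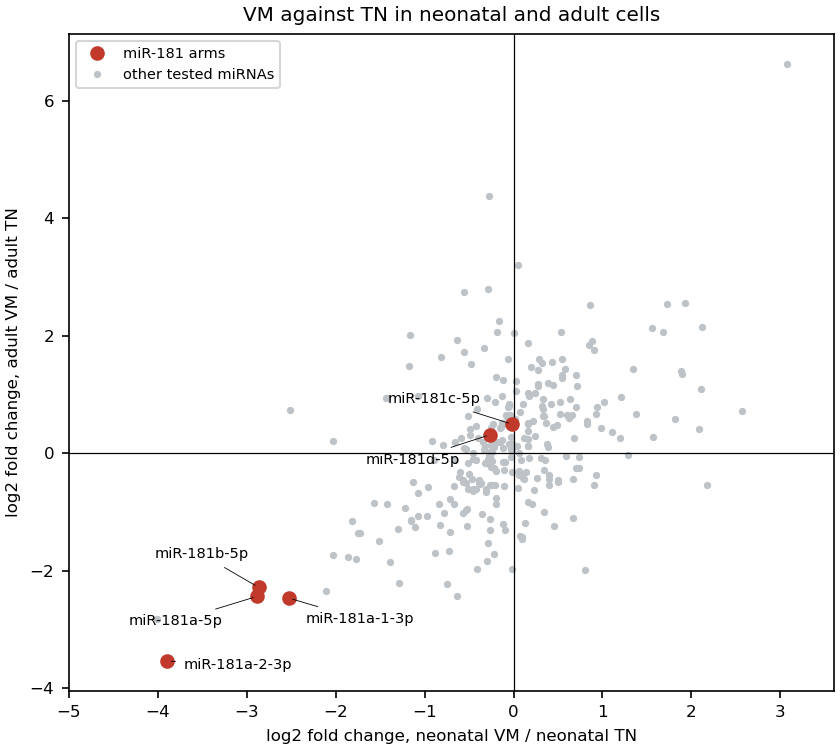
Log2 fold change of VM over TN cells for each of the 288 tested miRNAs, in neonatal cells (x axis) and in adult cells (y axis), with the miR-181 arms in red. The 4 arms of the chromosome 1 and 2 hairpins lie at the low end of both axes (miR-181a-2-3p at -3.89 and -3.54), and miR-181c-5p and miR-181d-5p lie near the centre.

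The difference between these 2 subset effects was tested as an interaction, to ask whether the VM change depends on age. None of the 6 members passed, where 7.99% of all tested miRNAs did (1.74% higher and 6.25% lower). The log2 differences, neonatal minus adult, ran from -0.58 for miR-181b-5p (SE 0.33, edgeR adjusted p = 0.304) to -0.061 for miR-181a-1-3p (SE 0.32, edgeR adjusted p = 0.947). All 6 were negative, and the median of all tested miRNAs was -0.14. No member had an unadjusted p under 0.05, and DESeq2 called 0. Without adult VM replicate 2, miR-181b-5p passed (-0.54, edgeR adjusted p = 0.033). The sign for miR-181a-1-3p turned to 0.077 with RLE factors and 0.079 with library totals.

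The comparison of neonatal with adult cells asked how the family differs with age within a subset. It uses the same libraries as the subset comparison, so the tests are not independent. In VM cells 5 of the 6 members rose in neonatal cells, where 22.9% of all tested miRNAs were called higher, 30.9% lower and 53.8% in either direction. MiR-181a-2-3p was 4.04-fold higher in neonatal VM (log2 value 2.01, SE 0.24, edgeR adjusted p = 2.28e-05) and miR-181d-5p 3.61-fold (1.85, SE 0.20, edgeR adjusted p = 1.37e-05). MiR-181b-5p was 2.33-fold higher (1.22, SE 0.21, edgeR adjusted p = 4.65e-04) and miR-181c-5p 1.62-fold (0.69, SE 0.19, edgeR adjusted p = 0.00771). MiR-181a-5p changed least of the 5, at 1.42-fold (0.51, SE 0.19, edgeR adjusted p = 0.044). It did not pass without neonatal VM replicate 1 (log2 value 0.36, edgeR adjusted p = 0.331), without replicate 2 (0.66, edgeR adjusted p = 0.0676) or with no filter (0.39, edgeR adjusted p = 0.0647). MiR-181c-5p did not pass without neonatal VM replicate 2 (log2 value 0.62, edgeR adjusted p = 0.105), which left 3 members called. MiR-181a-1-3p did not pass (0.44, SE 0.21, edgeR adjusted p = 0.0937), but did with RLE factors (0.0342), library totals (0.00133), the 100 CPM filter (0.0122) and DESeq2 (0.032) and without adult VM replicate 2 (0.0123).

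In TN cells, with the 1 neonatal library against 2 adult ones, the same 5 members rose, where 26.4% of all tested miRNAs were called higher, 21.5% lower and 47.9% in either direction. MiR-181d-5p was 5.37-fold higher in neonatal TN (log2 value 2.43, SE 0.23, edgeR adjusted p = 7.03e-06) and miR-181a-2-3p 5.16-fold (2.37, SE 0.25, edgeR adjusted p = 1.95e-05). MiR-181b-5p was 3.48-fold higher (1.80, SE 0.25, edgeR adjusted p = 1.20e-04), miR-181c-5p 2.29-fold (1.20, SE 0.22, edgeR adjusted p = 0.00101) and miR-181a-5p 1.93-fold (0.95, SE 0.23, edgeR adjusted p = 0.00551). MiR-181a-5p did not pass without adult TN replicate 1 (log2 value 0.59, edgeR adjusted p = 0.09). MiR-181a-1-3p did not pass (0.50, SE 0.24, edgeR adjusted p = 0.107), but did with library totals (0.00625) and the 100 CPM filter (0.0452) and without adult VM replicate 2 (0.013).

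The median log2 fold change of the 6 with neonatal age was 0.96 in VM, against -0.08 over all tested miRNAs, and 1.497 in TN, against 0.04. Scaling by library totals moved the median of all tested miRNAs up by 0.51 in VM, 0.36 in TN and 0.25 for VM over TN in neonatal cells. It made the calls 117 higher and 49 lower in VM, against 66 and 89 with TMM factors, and 106 and 38 in TN, against 76 and 62. No member was called lower in neonatal cells by edgeR or DESeq2, and none had an unadjusted p under 0.05 in that direction. The summed lymphocyte miRNAs moved with age, being lower in every neonatal library than in every adult one. MiR-150-5p, the largest part of that sum in each adult library, had 62258 to 77562 CPM in neonatal and 207898 to 435180 CPM in adult libraries. MiR-155-5p was also lower in every neonatal library. For miR-142a-3p, miR-142a-5p and miR-342-3p the neonatal and adult libraries overlapped. The sum of the 3 endothelial and stromal markers moved with age too. It was 47.5 to 59.0 CPM in neonatal VM and 74.7 in neonatal TN. In adult cells it was 23.3 to 29.7 CPM in VM and 9.17 to 12.4 in TN. Of these markers, miR-126a-3p was barely apart, at 7.16 CPM in neonatal TN and 6.84 in adult VM replicate 1. MiR-145a-5p was at 0 in all but the neonatal TN library. The 3 epithelial and liver markers summed to 15.3 to 23.5 CPM in neonatal VM and 30.2 in neonatal TN, against 8.99 to 17.7 in adult VM and 2.14 to 5.396 in adult TN, with miR-122-5p at 0 in all but adult TN replicate 1. Their part in the result was not tested.

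**Figure D3:**
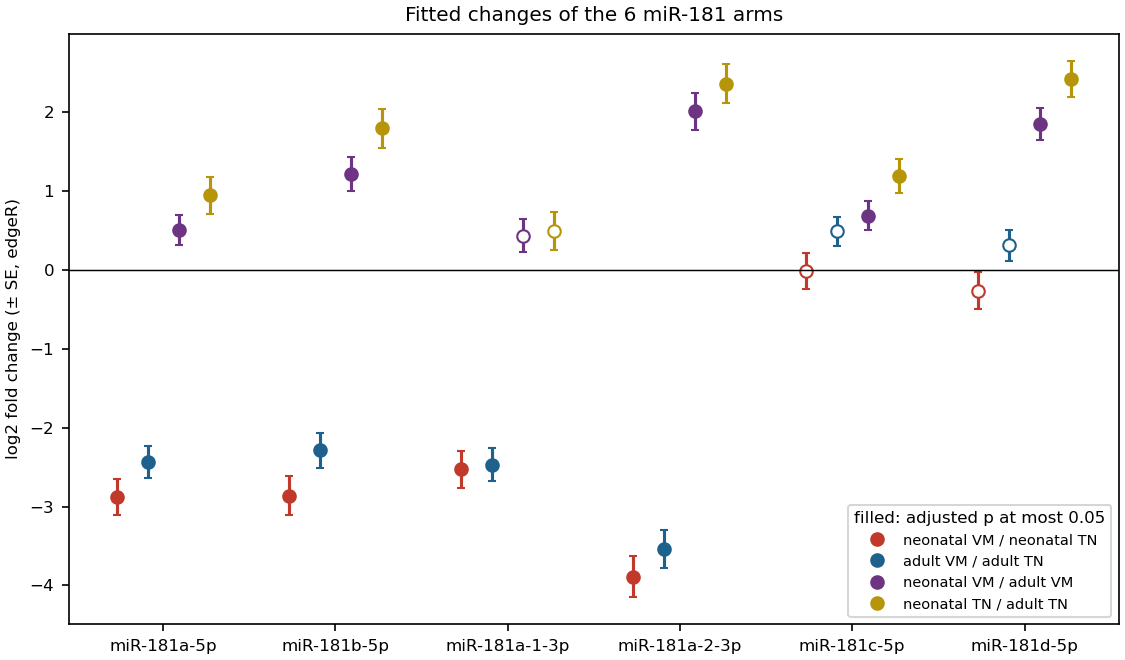
Fitted log2 fold change of each arm in 4 comparisons, with its SE; filled points passed edgeR's test at an adjusted p of 0.05 and open points did not. The VM over TN changes of the chromosome 1 and 2 arms lie between -3.89 and -2.29, and the age changes run from 0.44 for miR-181a-1-3p in VM to 2.43 for miR-181d-5p in TN.

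Because the 4 guide arms share a seed, their sum and its make-up were also followed within each library. The sum is given relative to the library total, without TMM factors, and the make-up needs no scaling. They took 6.25 and 5.74% of all counts in neonatal VM and 22.2% in neonatal TN (95% Wilson interval 22.1 to 22.2%). In adult cells they took 2.58 and 2.72% in VM and 7.63 and 9.20% in TN. With the 3p arms added, the family's share was 6.29 and 5.77% in neonatal VM, 22.5% in neonatal TN, 2.59 and 2.73% in adult VM and 7.70 and 9.28% in adult TN. Every VM library lay below every TN library. The exact two-sided permutation p for VM against TN (4 against 3 libraries) was 0.0571, the smallest this design can give, so 0.05 could not be reached. Without the neonatal TN library the mean difference was -4.14 percentage points, against -8.80 with it. Within a subset the share was higher in neonatal cells with no overlap, by 3.37 percentage points in VM and 13.97 in TN. Pooled over subsets, which the ages hold in unequal numbers, neonatal and adult libraries overlapped (mean difference 5.93 points, exact permutation p = 0.343). Without the neonatal TN library that mean difference fell to 0.456 points.

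The make-up of that shared-seed sum differed between the subsets. MiR-181a-5p made up 53.1 and 46.0% of it in neonatal VM and 83.5% in neonatal TN, and 58.2 and 53.3% in adult VM and 87.1 and 88.6% in adult TN. MiR-181c-5p made up 36.0 and 43.1% in neonatal VM and 9.06% in neonatal TN, and 36.4 and 41.03% in adult VM and 8.77 and 7.54% in adult TN. For miR-181c-5p neonatal and adult VM overlapped, and for miR-181a-5p both neonatal VM libraries lay below both adult VM ones. No VM library overlapped a TN library for either arm. MiR-181d-5p made up 7.38 and 7.90% in neonatal VM, 2.08% in neonatal TN, 3.04 and 3.66% in adult VM and 0.903 and 0.706% in adult TN. MiR-181b-5p made up 3.49 and 2.99% in neonatal VM and 5.40% in neonatal TN. In adult cells it made up 2.39 and 2.05% in VM and 3.19 and 3.13% in TN. It was thus lower in VM than in TN within each age, with overlap across ages.

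The log2 ratio of the chromosome 8 guide arms (miR-181c-5p plus miR-181d-5p) to the others (miR-181a-5p plus miR-181b-5p) summed this up. It was -0.38 and 0.06 in neonatal VM and -2.99 in neonatal TN, and -0.62 and -0.31 in adult VM and -3.22 and -3.48 in adult TN. In neonatal VM replicate 2 the chromosome 8 arms thus slightly exceeded the others. The mean difference, VM minus TN, was 2.92 on the log2 scale over 4 and 3 libraries (exact two-sided permutation p = 0.0571, the smallest possible). It was 2.83 within neonatal and 2.89 within adult cells. Neonatal minus adult was 0.30 within VM, where the libraries overlapped, and 0.36 within TN, where they did not. Pooled over subsets, which the ages hold in unequal numbers, the libraries overlapped (0.80, exact permutation p = 0.343). Without the neonatal TN library the pooled difference was 1.74, and without adult VM replicates 1 and 2 it was 1.23 and 1.33. Leaving out adult TN replicate 1 or 2 gave 0.36 or 0.28, and leaving out neonatal VM replicate 1 or 2 gave 0.44 or 0.22.

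**Figure D4:**
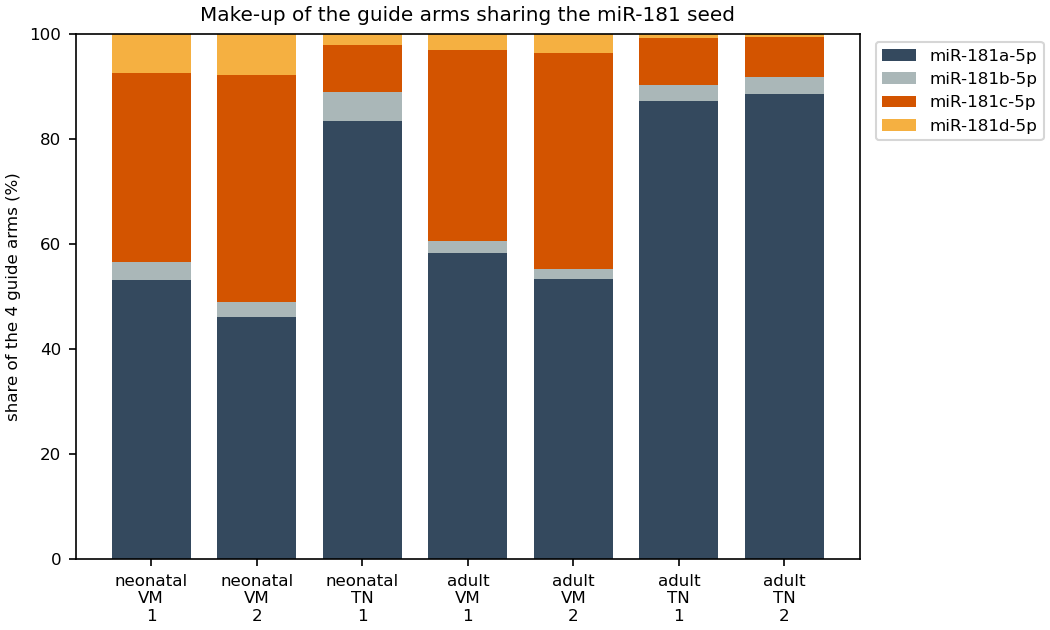
Share of each guide arm in the sum of the 4 guide arms, in percent of that sum, for every library. MiR-181c-5p takes 36.0 to 43.1% in the 4 VM libraries and 7.54 to 9.06% in the 3 TN libraries.

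The 3p arms were used to set the passenger arm of the chromosome 2 hairpin of miR-181a against that of chromosome 1. Their counts are levels of mature passenger arms, which are mostly degraded, and the output of the hairpins was not measured. Reads exchanged between these arms would also shift their split. MiR-181a-2-3p made up 48.8 and 48.4% of both 3p arms in neonatal VM and 70.9% in neonatal TN (95% Wilson interval 69.9 to 71.9%). It made up 25.1 and 23.1% in adult VM and 38.4 and 41.3% in adult TN. All neonatal libraries lay above all adult ones (mean 56.0% in 3 neonatal libraries and 32.0% in 4 adult libraries, exact two-sided permutation p = 0.0571, the smallest possible). The difference was 24.5 percentage points within VM and 31.1 within TN. VM lay below TN within each age (VM minus TN -22.3 points in neonatal and -15.7 in adult cells), although VM and TN libraries overlapped across ages (exact permutation p = 0.343). Over both ages VM minus TN was -13.8 points, and -3.46 without the neonatal TN library.

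The ratio of miR-181a-5p to the sum of both its passenger arms also shifted. MiR-181a-2-3p is part of that sum, so this ratio and the share above are not independent. With neonatal age the fitted log2 fold change of miR-181a-5p was 0.51 in VM and 0.95 in TN. For miR-181a-1-3p it was 0.44 and 0.50, and for miR-181a-2-3p 2.01 and 2.37. A ratio to miR-181a-1-3p alone was not tested. The log2 ratio of miR-181a-5p to both of its 3p arms was 6.59 and 6.48 in neonatal VM and 6.07 in neonatal TN, and 7.07 and 6.996 in adult VM and 6.60 and 6.71 in adult TN. It was lower in neonatal than in adult libraries with no overlap (neonatal minus adult -0.47 on the log2 scale, exact two-sided permutation p = 0.0571 over 3 and 4 libraries, the smallest possible). The difference was -0.50 within VM and -0.59 within TN, and over both subsets without the neonatal TN library it was -0.31. VM lay above TN by 0.46 in neonatal and 0.38 in adult cells, and over both ages by 0.32 with overlap (exact permutation p = 0.343), or by 0.13 without neonatal TN.

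**Figure D5:**
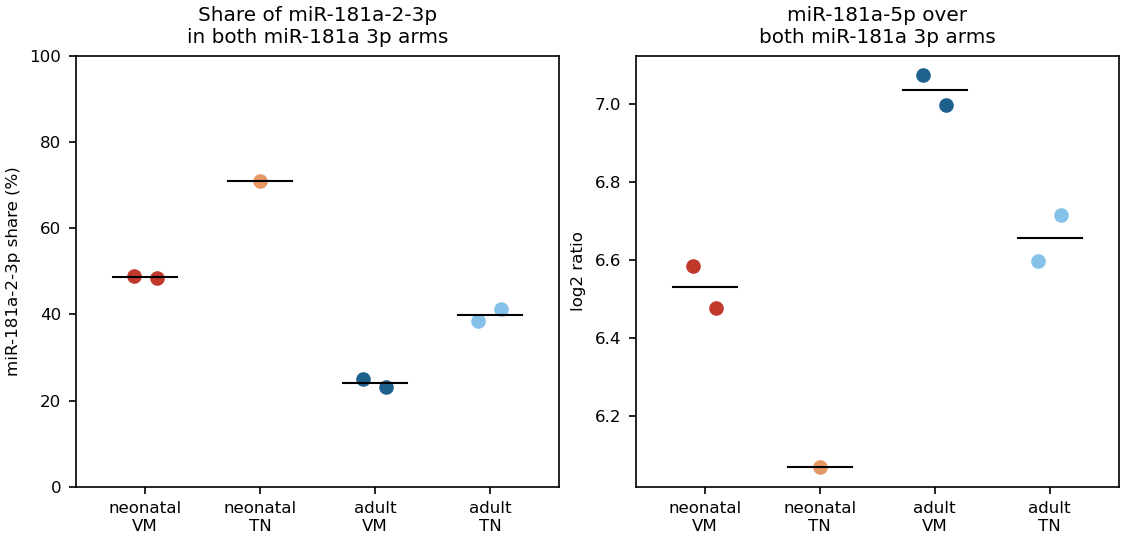
Left, share of miR-181a-2-3p in the sum of both miR-181a 3p arms (percent); right, log2 ratio of miR-181a-5p to that sum, on an axis that does not start at 0. Points are libraries and lines are group means. The neonatal TN library has the highest share (70.9%) and the lowest ratio (6.07).

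The 4 arms of these hairpins that are not members were less abundant than their partners. MiR-181c-3p was tested and stood at 855 and 878 CPM in neonatal VM and 773 CPM in neonatal TN, against 287 and 301 CPM in adult VM and 179 and 237 CPM in adult TN. Like miR-181c-5p it rose with neonatal age, by a log2 fold change of 1.56 in VM (SE 0.21, edgeR adjusted p = 5.82e-05) and 1.89 in TN (SE 0.24, edgeR adjusted p = 7.58e-05), and did not pass between VM and TN in neonatal (0.16) or adult (0.50) cells. MiR-181b-1-3p, at 0.784 to 11.2 CPM, miR-181d-3p, at 0.346 to 3.66 CPM, and miR-181b-2-3p, listed with 2 counts in neonatal TN and 0 elsewhere, did not pass the filter on low values.

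Likeness between patterns was measured as the root mean square difference of log2 CPM, each miRNA centred on its mean over the 7 libraries. Among the members, miR-181a-5p lay 0.17 from miR-181a-1-3p, 0.39 from miR-181b-5p, 0.82 from miR-181a-2-3p, 1.46 from miR-181c-5p and 1.61 from miR-181d-5p. MiR-181c-5p lay 0.58 from miR-181d-5p. Of the 282 other tested miRNAs, at a median of 1.48, the nearest to miR-181a-5p were miR-132-3p (0.51), miR-211-5p (0.79), miR-99b-5p (0.80), miR-150-3p (0.83) and miR-3057-5p (0.86). MiR-132-3p stood far lower, at 8.41 and 17.8 CPM in neonatal VM and 58.8 in neonatal TN, and at 4.83 and 6.22 CPM in adult VM and 19.4 and 36.8 in adult TN. Nearest to miR-181d-5p were miR-677-5p (0.23), miR-181c-3p (0.26) and miR-5099 (0.29), at a median of 1.18. MiR-677-5p was near the floor in adult cells, at 3.62 and 7.61 CPM in VM and 2.70 and 3.42 CPM in TN.

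A list of 16 other miRNAs with known roles in T cell signalling or maturation was set beside the family, and 14 of them passed the filter and were tested (not miR-214-3p and miR-125b-5p). In neonatal cells, where 3.12% of all tested miRNAs were called higher and 6.60% lower, 1 rose in VM, miR-21a-5p, which is induced on T cell activation (log2 fold change 1.72), 1 fell, miR-132-3p (-2.11), and 12 did not pass, with a list median of 0.29. In adult cells, against 23.3% higher and 15.6% lower over all tested miRNAs, 7 of the 14 rose, namely miR-21a-5p (2.55), miR-146a-5p, a brake on NF-kB signalling (2.52), miR-155-5p, which is induced by antigen (1.44), miR-142a-5p (1.28), miR-19b-3p (1.15), miR-142a-3p (0.93) and miR-24-3p (0.76). There 3 fell, miR-132-3p (-2.34), miR-150-5p (-0.87) and miR-92a-3p (-0.45), with a list median of 0.64. With neonatal age in VM, against 22.9% higher and 30.9% lower over all, 2 rose, miR-31-5p (4.58) and miR-132-3p (1.28), and 7 fell, namely miR-29a-3p (-2.73), miR-155-5p (-1.72), miR-146a-5p (-1.61), miR-150-5p (-1.60), miR-142a-5p (-0.81), miR-19b-3p (-0.74) and miR-92a-3p (-0.45), with a list median of -0.46. In TN, against 26.4% higher and 21.5% lower over all, 2 rose, miR-31-5p (4.72) and miR-24-3p (1.24), and 4 fell, namely miR-29a-3p (-3.01), miR-150-5p (-2.69), miR-155-5p (-0.86) and miR-27a-3p (-0.63), with a list median of -0.0023. In the interaction, against 1.74% higher and 6.25% lower over all, 1 was higher, miR-150-5p (1.08), 1 was lower, miR-146a-5p (-1.66), and the list median was -0.32. All of these calls are edgeR's at an adjusted p of 0.05 over the 288 miRNAs, and the medians over all tested miRNAs are those given for the family.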

How the data were processed

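Total RNA (50 to 100 ng) went into Illumina TruSeq small RNA libraries with inserts of about 18 to 35 bases, per the labels' protocols. The authors deposited estimated counts per mature arm and precursor line, with fractional values, per the file headers and values. The sources used here do not name an aligner or counter. Per the submitters' processing notes the genome build was mm10.

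Lines were summed per mature name and rounded to whole numbers (shifts up to 0.5). Library totals were 1577031 to 3278449. Testing covered the 288 miRNAs that reached 10 CPM (15.8 to 32.8 counts) in 2 or more libraries, and all 6 miR-181 members passed that filter. Counts scaled by TMM factors were fitted in edgeR 4.0.16 (R 4.3.3) with the robust quasi-likelihood test in a cell means model over all 7 libraries (3 residual degrees of freedom), with Benjamini-Hochberg adjustment over the 288 at 0.05. The neonatal TN group had 1 library, whose spread was taken from the other groups. Ratios within a library were compared by exact two-sided permutation over libraries (scipy 1.17.1). Intervals are 95% Wilson intervals and cover counting error only; without molecular identifiers, PCR copies count as separate reads.

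All 6 members are described. The miRNAs most like a member were those with the smallest root mean square difference of centred log2 CPM (prior count 2): 5 for miR-181a-5p and 3 for miR-181d-5p. Members, lists, tests and alternatives were chosen with earlier results of these data known. Alternatives were RLE factors, library totals, scaling without the members, no filter, a 100 CPM filter, DESeq2 1.42.0, the replicate number as a block, the largest precursor line per name, unrounded sums for the ratios, and each library left out. The fit was also run on simulated counts, drawn with the spread estimated from these libraries. That run cannot check the spread itself, and no result here rests on it. Sequences and hairpin coordinates are RefSeq's on GRCm38.p6, hosts are GENCODE M21's, and figures used matplotlib 3.10.9.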

Additional observations from a re-analysis of the deposited data

How the results depend on the processing

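MiR-181a-5p, miR-181b-5p, miR-181a-1-3p and miR-181a-2-3p were called lower in VM at both ages under each of the alternatives that gave a value. Their highest adjusted p was 0.0045 in adult and 0.00141 in neonatal cells. Calls with age held under each alternative for miR-181a-2-3p, miR-181b-5p and miR-181d-5p. The comparisons that use neonatal TN could not be fitted without that library.

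With no filter, 53 miRNAs were called for VM over TN in neonatal cells (28 in the reported fit) and 43 for the interaction (23). DESeq2 called 37 for the interaction. With the 100 CPM filter, 69 were called with age in TN (138) and 93 in VM (155), from 153 tested. Over libraries left out, calls ran from 23 to 142 for VM over TN in adult cells (23 and 51 without adult TN replicates 2 and 1), from 16 to 77 in neonatal cells, from 83 to 179 for age in TN, from 106 to 171 for age in VM and from 6 to 86 for the interaction. Members called ran from 4 to 5 for VM over TN in adult cells and were 4 in neonatal cells, from 4 to 6 and 3 to 6 for age in TN and VM and from 0 to 1 for the interaction. The cause was not tested.

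Signs turned for values near 0 in the reported fit (-0.012 and -0.061), and for miR-181d-5p in adult cells, at 0.31 (SE 0.20) there. For VM over TN in neonatal cells, miR-181c-5p was at 0.054 with RLE factors and with DESeq2, 0.052 with no filter, 0.071 with scaling without the members, 0.23 with library totals, and 0.070 and 0.14 without adult TN replicate 2 and neonatal VM replicate 1 (from -0.048 to 0.14 over libraries left out). For the interaction, miR-181a-1-3p was at 0.077 with RLE factors, 0.076 with DESeq2, 0.079 with library totals, 0.087 with the 100 CPM filter, 0.033 with the largest precursor line, and 0.081, 0.17 and 0.13 without adult VM replicate 2, adult TN replicate 1 and neonatal VM replicate 2 (from -0.095 to 0.17). MiR-181d-5p for VM over TN in adult cells was at -0.015 without adult VM replicate 2 (from -0.015 to 0.47).

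The family's share, taken with the largest precursor line per name, differed by -5.33 points for VM minus TN and 5.03 for neonatal minus adult, since that choice drops one of the 2 equal lines of miR-181a-5p. Over libraries left out these differences ran from -11.5 to -4.14 and from 0.456 to 8.80. The miR-181a-2-3p share ran from -19.7 to -3.46 points (VM minus TN) and from 16.7 to 27.9 (neonatal minus adult), and the guide to passenger log2 ratio from 0.13 to 0.45 and from -0.57 to -0.31. The chromosome 8 ratio ran from 2.79 to 3.04 and from 0.22 to 1.74.

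The labels number the replicates but do not say that a number marks a shared animal or day. Differences between replicates 1 and 2 correlated at 0.017, -0.16 and 0.14 between pairs of groups over 288 miRNAs. Each group gave only 1 such difference per miRNA, so these values cannot decide whether a number marks something shared. With the replicate number as a block, the calls over all miRNAs were 116, 25, 129, 148 and 25 for VM over TN in adult and neonatal cells, age in TN, age in VM and the interaction, and 4, 4, 5, 5 and 0 members were called.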
